A study of Mus musculus with 6 samples.

Results

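Ank3 and Ank2 encode ankyrin-G and ankyrin-B, adaptor proteins that tie membrane proteins to the spectrin skeleton beneath the plasma membrane. Ankyrin-G organises the axon initial segment and the nodes of Ranvier, where it holds sodium channels in place, and ankyrin-B is found along axons. Both are very long genes whose transcripts are spliced in several ways, and giant forms of both proteins are made in neurons. PTBP1 and PTBP2 are closely related proteins that bind pyrimidine-rich RNA, mostly in nuclear precursor RNA, and repress or activate nearby exons. Neurons in development make little PTBP1 and rely on PTBP2. The results below describe where RNA of the 2 ankyrin genes was listed as crosslinked to either protein in the cortex of newborn mice.

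The members were all distinct listed read intervals whose midpoint lay in chromosome 10 from 68.86 to 69.49 Mb on the plus strand for Ank3 (630 kb) or in chromosome 3 from 126.63 to 127.2 Mb on the minus strand for Ank2 (570 kb), on the mm9 genome. An interval is a unique combination of chromosome, strand, start and end. Over the 6 libraries 10654 of 940882 distinct intervals were members, 6405 in Ank3 and 4249 in Ank2. The loci were chosen because they held many intervals in these same libraries, so the levels below are a description and no test of them is given. Positions are not assigned to exons, introns or untranslated regions, since a gene model for mm9 was not used here. Distances are given from the 5′ edge of the chosen locus, not from a known transcription start.

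All libraries came from cerebral cortex of BL6/129Sv mice on postnatal day 1. After ultraviolet crosslinking, nuclear fractions were immunoprecipitated and the bound RNA was sequenced, a procedure called iCLIP. FLAG antibody was used in 4 libraries: wild-type cortex (replicates 1 and 2, called background replicates here), Rosa-PTBP1 cortex with Emx1-cre, and cortex carrying Rosa-PTBP1, PTBP2 loxp/loxp and Emx1-Cre, called FLAG loxp here. The antibody to PTBP2 itself was applied to cortex of both the wild type and Rosa-PTBP1 with Emx1-cre, 1 library each. Rosa-PTBP1 makes PTBP1 with a FLAG tag. Emx1-cre drives recombination in the dorsal forebrain, so the transgene and loxp alleles are recombined only in cells in which that driver has been active. Every Rosa-PTBP1 library carried the recombinase, so the transgene and the recombinase cannot be told apart in a comparison with wild type. Wild-type cortex has no FLAG-tagged protein, and its FLAG libraries give the background of the procedure. Whether its replicates were separate animals is not stated in the labels, nor whether animals were pooled.

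The lists held 26665 to 351602 distinct intervals per library, which merged into 9567 to 73519 sites, a site being a run of overlapping or touching intervals on 1 strand. The background replicate 1 stood apart, with 85.8% of its sites made of a single interval against 15.1% to 46.2% in the others. The FLAG Rosa-PTBP1 list was nearly empty on chromosome 10 and the PTBP2 Rosa-PTBP1 list was sparse on 7 chromosomes, neither chromosome 3 nor chromosome 10 among them. Ank3 was therefore compared without FLAG Rosa-PTBP1. The percentages of a library given first count every chromosome, while the ratios between libraries further on count the chromosomes filled in all libraries compared. By the run names in the read names, background replicate 2 and both FLAG-PTBP1 libraries came from 1 sequencing run, and the other 3 libraries from another pair of runs. The antibody and the run therefore cannot be told apart when a FLAG-PTBP1 library is set beside a PTBP2 library.

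Ank3 was the richer of the 2 genes in each PTBP library that covered it. FLAG loxp listed 3529 distinct intervals, PTBP2 wild type 1900 and PTBP2 Rosa-PTBP1 913, beside 170 and 78 for the background replicates and 16 in FLAG Rosa-PTBP1. As a share of the library, that was 1.33% (exact Clopper-Pearson 95% interval 1.28% to 1.37%), 1.22% (1.17% to 1.28%) and 1.23% (1.15% to 1.31%) in the 3 PTBP libraries. These shares count every chromosome, and the 7 chromosomes sparse in PTBP2 Rosa-PTBP1 lower its total. On the chromosomes filled in both PTBP2 libraries, Ank3 held 13.4 of 1000 intervals in PTBP2 Rosa-PTBP1 and 18.3 in PTBP2 wild type, a ratio of 0.734. Over every chromosome the background replicates had 0.192% (0.165% to 0.224%) and 0.293% (0.231% to 0.365%). All such error ranges cover counting error only and treat stacked read intervals as independent.

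Counted as sites, Ank3 had 240 in FLAG loxp, 127 in PTBP2 wild type, 92 in PTBP2 Rosa-PTBP1, 131 in background replicate 1, 25 in replicate 2 and 4 in FLAG Rosa-PTBP1. Replicate 1 thus listed about as many places in Ank3 as PTBP2 wild type did, but its places were thin. A site of Ank3 was built from 14.70 intervals on average in FLAG loxp, 14.96 in PTBP2 wild type and, in its Rosa-PTBP1 counterpart, 9.92, against 1.30 and 3.12 in the background replicates. Stacked sites, made of 5 or more intervals, numbered 162, 77 and 25 in those 3 PTBP libraries and 1 and 7 in the replicates.

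For Ank2 FLAG Rosa-PTBP1 listed 1974 distinct intervals, FLAG loxp 1248, PTBP2 wild type 612 and PTBP2 Rosa-PTBP1 277, beside 189 and 33 for the background replicates. Its share of the library was highest in FLAG Rosa-PTBP1, at 0.561% (0.537% to 0.587%), followed by FLAG loxp at 0.469% (0.444% to 0.496%). PTBP2 wild type, at 0.394% (0.363% to 0.426%), and PTBP2 Rosa-PTBP1, at 0.372% (0.330% to 0.419%), had overlapping intervals over every chromosome. On the chromosomes filled in both, Ank2 held 4.07 of 1000 intervals in PTBP2 Rosa-PTBP1 and 5.89 in PTBP2 wild type, a ratio of 0.691. The background shares were 0.214% and 0.124%. Its sites numbered 230, 142, 103 and 54 in the 4 PTBP libraries and 160 and 9 in the replicates, and 8.58, 8.79, 5.94 and 5.13 intervals made up a site on average in the PTBP libraries.

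**Figure D1:**
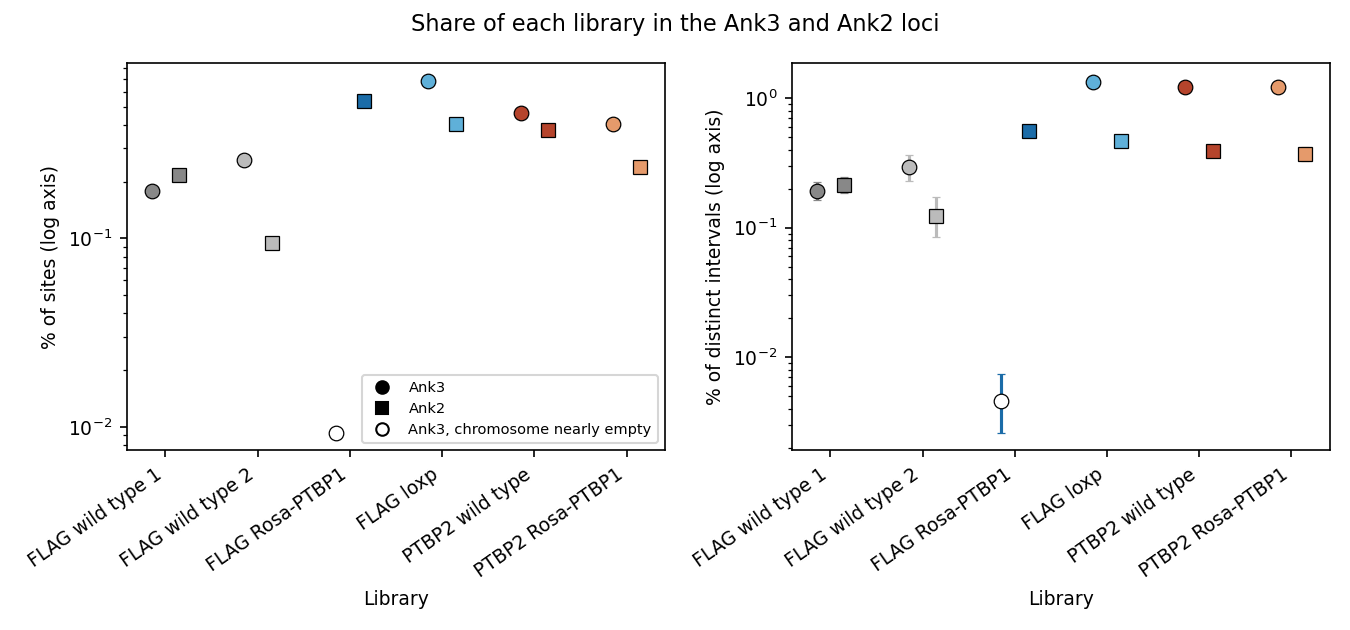
Share of each library's sites (left) and of its distinct intervals (right) that lay in Ank3 (circles) and Ank2 (squares), both on log axes, 1 point per library; FLAG wild type 1 and 2 are the background replicates. Bars on the right are exact 95% intervals for counting error. The open circle is Ank3 in FLAG Rosa-PTBP1, whose list was nearly empty on chromosome 10. The 3 filled Ank3 circles of the PTBP libraries lie at 1.22% to 1.33% of intervals, above Ank2 in the same libraries.

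Per length, Ank3 held 560 intervals per 100 kb in FLAG loxp and Ank2 held 219, a ratio of 2.56. The same ratio was 2.81 and 2.98, in order, in the PTBP2 libraries of wild-type and Rosa-PTBP1 cortex. Ank3 therefore had the denser signal of the pair in all 3 PTBP libraries that covered both genes. In sites per 100 kb the ratio was smaller, at 1.53, 1.12 and 1.54, so that the gene difference lay more in how deeply sites were stacked than in how many there were. The background replicates did not share a direction: their ratio of intervals per length was 0.814 in replicate 1 and 2.14 in replicate 2.

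All intervals in both loci were on the strand of the gene. The opposite strand of Ank3 was listed at 0 beside 3529 sense intervals in FLAG loxp and 1900 in PTBP2 wild type, and that of Ank2 was listed at 0 beside 1974 in FLAG Rosa-PTBP1. In 100-kb windows with 20 or more intervals, 88.9% to 96.1% of all windows in each library also held 1 strand only, so this was the usual state of these lists. The lists hold clusters that passed a false discovery rate, and a strand listed at 0 may still have held reads.

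Few intervals lay outside the chosen bounds. In FLAG loxp the 200 kb on the low side of Ank3 held 8 intervals on the same strand and the 200 kb on the high side held 7, beside 3529 within the locus. In FLAG Rosa-PTBP1 the same flanks of Ank2 held 7 and 0 intervals beside 1974. Just inside the chosen bounds, the outermost member of Ank3 began 18.1 kb from the low edge and the other ended 1.52 kb from the high edge. The nearest intervals outside lay 129 kb below and 84.2 kb above. For Ank2 the outermost members were 4.74 kb and 2.74 kb inside, and the nearest outside were 2.06 kb below and 54.2 kb above. In an annotation of another build, GRCm38, which was used for names only, no other protein-coding gene overlaps either gene, Ank3 lies between Cdk1 and Ccdc6, and Ank2 between Camk2d and Larp7.

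Within each gene, PTBP signal was gathered in a short stretch some way in from the 5′ edge. For Ank3 the 100-kb stretch with most PTBP2 wild-type intervals was chr10:69060001-69160000, 200 to 300 kb from the edge, and it made up 15.9% of the locus. It held 1485 of 1900 PTBP2 wild-type intervals (78.2%), the value by which it was chosen. In FLAG loxp, which was not used to choose it, it held 2502 of 3529 intervals (70.9%, 69.4% to 72.4%), and in PTBP2 Rosa-PTBP1 655 of 913 (71.7%, 68.7% to 74.6%). The background replicates had 74 of 170 (43.5%, 36.0% to 51.3%) and 20 of 78 (25.6%, 16.4% to 36.8%) of their intervals there. By intervals, both background shares lay below those of the PTBP libraries. Their error ranges treat stacked intervals as independent and are therefore too narrow. A single region within the stretch held 594 of the FLAG loxp intervals and 353 of those of PTBP2 Rosa-PTBP1. By sites, PTBP2 Rosa-PTBP1 had 53.3% (42.6% to 63.7%) in the stretch, which overlapped the error of replicate 1, at 42.0% (33.4% to 50.9%), and of replicate 2, at 24% (9.36% to 45.1%), while FLAG loxp had 75% and PTBP2 wild type 67.7%.

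In 10-kb bins, 3 of the 63 bins of Ank3 were enough to hold 50% or more of the intervals in FLAG loxp and in PTBP2 wild type. In PTBP2 Rosa-PTBP1 2 bins were enough, against 11 and 7 in the replicates. The bin at 210 kb held 874 intervals in FLAG loxp, with 662 and 363 in the PTBP2 libraries of wild-type and Rosa-PTBP1 cortex. The bin at 320 kb, outside the chosen stretch, held 658, 234 and 122. The bin at 210 kb led in all 3 libraries, and that at 320 kb was the second in FLAG loxp and the third in the PTBP2 libraries. Second in the PTBP2 libraries was the bin at 220 kb, with 248 and 139. In FLAG loxp that bin held 420, below the 464 at 270 kb. The first 100 kb of the Ank3 locus held 1 interval in all, from PTBP2 Rosa-PTBP1. Beyond 340 kb lay 3.09%, 3.42% and 6.13% of the intervals of the PTBP libraries, against 30.6% and 42.3% in the background replicates.

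The Ank2 stretch chosen in the same way was chr3:126930001-127030000, 170 to 270 kb from the 5′ edge and 17.5% of the locus. It held 344 of 612 PTBP2 wild-type intervals (56.2%). Of the libraries not used to choose it, FLAG Rosa-PTBP1 had 1277 of 1974 there (64.7%, 62.5% to 66.8%), FLAG loxp 766 of 1248 (61.4%, 58.6% to 64.1%) and PTBP2 Rosa-PTBP1 129 of 277 (46.6%, 40.6% to 52.6%). The replicates had 51 of 189 (27.0%, 20.8% to 33.9%) and 0 of 33. Replicate 1 thus also held a larger share of its intervals in the stretch than its length, in Ank2 as in Ank3, but a smaller one than the PTBP libraries.

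The bin at 230 kb led Ank2 in all 4 PTBP libraries, with 481 intervals in FLAG Rosa-PTBP1 and 390 in FLAG loxp, with 189 and 75 in the PTBP2 libraries of wild-type and Rosa-PTBP1 cortex. A second peak stood nearer the 5′ edge. Its bin at 90 kb held 95, 68, 72 and 42 intervals, which put it second in both PTBP2 libraries and sixth in both FLAG-PTBP1 libraries. Unlike Ank3, Ank2 had PTBP signal in its first 100 kb, at 8.16%, 8.49%, 13.7% and 15.2% of the intervals of these libraries in the same order. In replicate 2, 17 of 33 Ank2 intervals fell in the bin at 280 kb, which led no PTBP library.

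**Figure D2:**
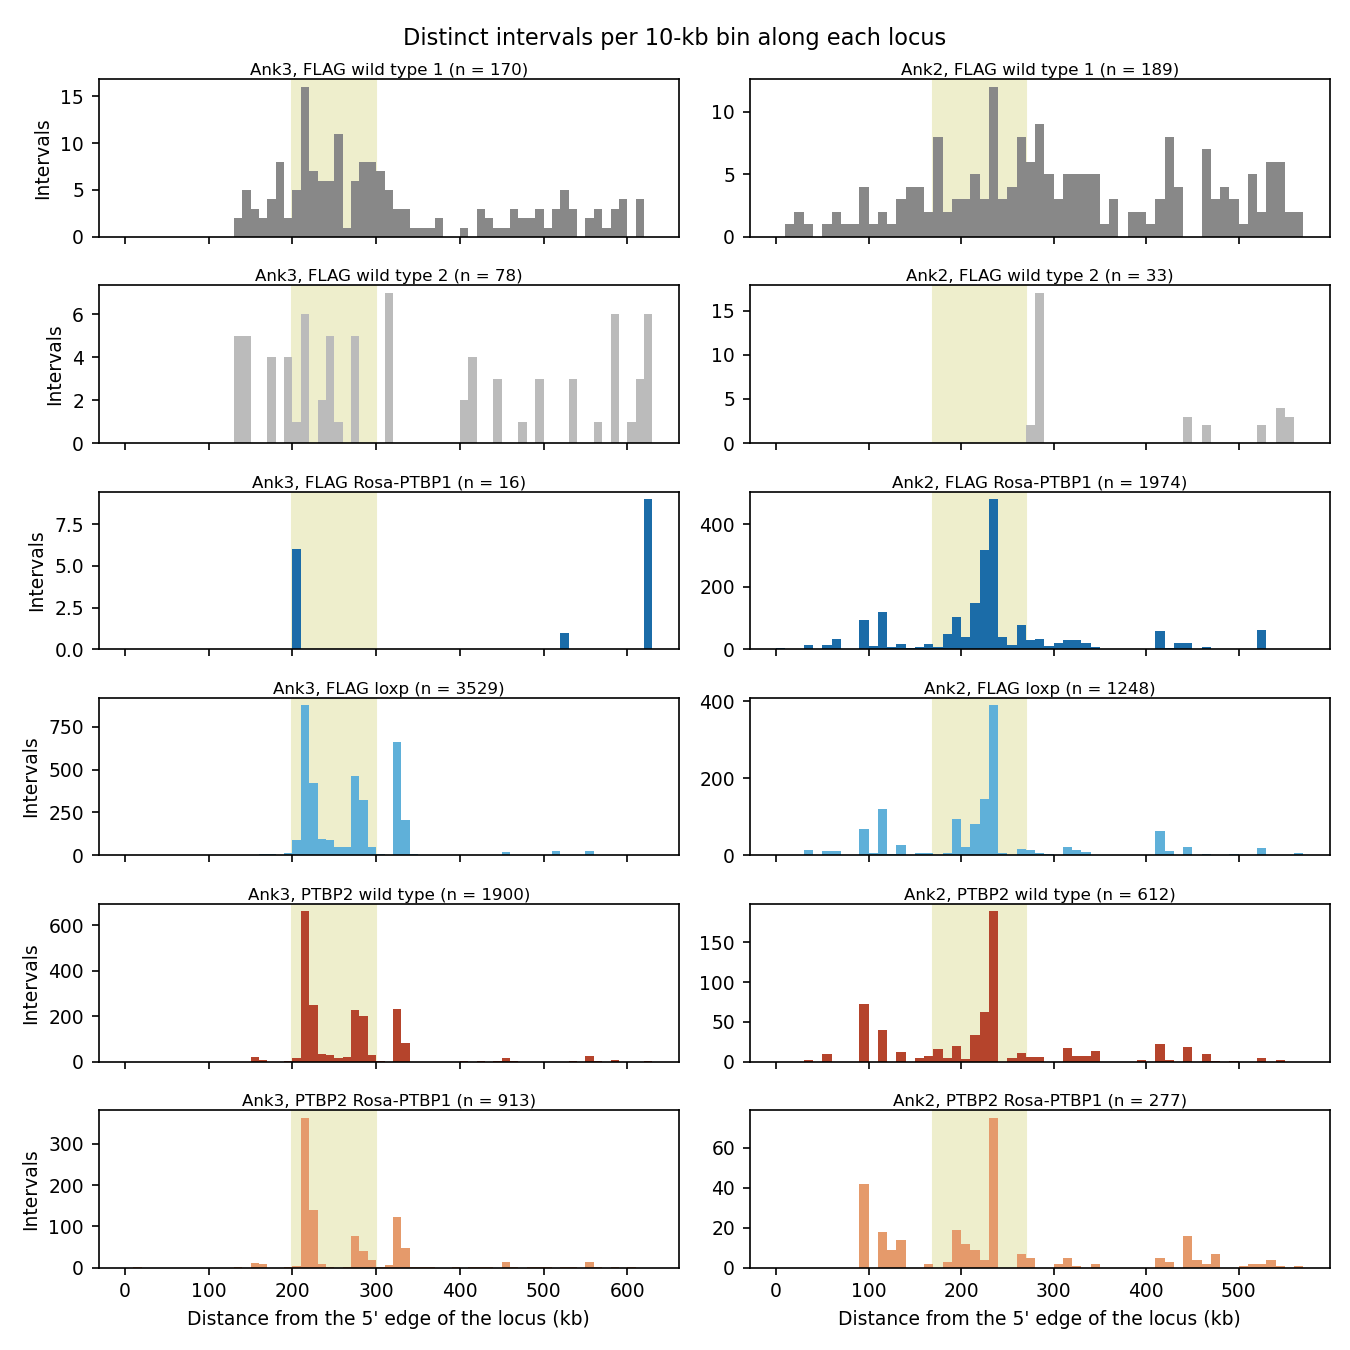
Distinct intervals per 10-kb bin (vertical axis, its scale differing between panels) by distance from the 5′ edge of the locus in kb, for Ank3 (left) and Ank2 (right) in each library. The shaded band is the 100-kb stretch chosen on PTBP2 wild type. The PTBP libraries peak in the same bins, at 210 kb and 320 kb in Ank3 and at 230 kb in Ank2, and background replicate 1 has its highest bins at 210 kb in Ank3 and 230 kb in Ank2 as well, at far lower counts. In Ank2, 17 of the 33 intervals of background replicate 2 lie in 1 bin. FLAG Rosa-PTBP1 held 16 Ank3 intervals and is not counted among the PTBP libraries for Ank3, since its list was nearly empty on chromosome 10.

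As a description over bins of 1 gene, which are not independent, the profile of FLAG loxp along Ank3 had a Pearson correlation of 0.96 and a Spearman correlation of 0.72 with that of PTBP2 wild type (63 bins). The 2 background replicates had 0.32 and 0.34 with each other. Along Ank2 (57 bins) FLAG Rosa-PTBP1 and FLAG loxp had 0.96 and 0.82, and FLAG Rosa-PTBP1 and PTBP2 wild type 0.92 and 0.72. Background replicate 1 had 0.60 and 0.66 with FLAG loxp and 0.65 and 0.57 with PTBP2 wild type along Ank3, and 0.41 and 0.22 with FLAG loxp along Ank2. Between background replicate 2 and FLAG loxp the values were 0.21 and 0.30 in Ank3 and -0.06 and 0.06 in Ank2. These bins share the mappability and base composition of the gene, and few bins carry most of the counts.

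One region of Ank3 outweighed every other place in either gene. It spanned 1045 bases, chr10:69072133-69073177 on the plus strand, 212.7 kb from the 5′ edge. It held 594 distinct intervals in FLAG loxp, with 617 and 353 in the PTBP2 libraries of wild-type and Rosa-PTBP1 cortex, against 3 in background replicate 1 and 0 in replicate 2 and in FLAG Rosa-PTBP1. That was 16.8%, 32.5% and 38.7% of the Ank3 intervals of the 3 PTBP libraries. The 3 were high and both background replicates at or near 0. The 0 of FLAG Rosa-PTBP1 cannot be read as absence, since its list was nearly empty on this chromosome. Its largest site held 582 intervals in FLAG loxp and was the third largest of 34912 sites of that library. In PTBP2 wild type it held 580 and in PTBP2 Rosa-PTBP1 348, and it ranked 4 of 27469 and 4 of 22637 sites. The next largest Ank3 site held 182, 92 and 101 intervals in these libraries.

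The intervals of this region began at many different bases, 358 in FLAG loxp, with 325 and 221 in the PTBP2 libraries of wild-type and Rosa-PTBP1 cortex. Coverage, the number of intervals over a base, had several maxima. Counted from the start of the region, PTBP2 wild type had maxima of 15 or more at 104, 348, 400, 519, 611 and 735 bases. Those of PTBP2 Rosa-PTBP1 lay at 328, 399, 520, 619 and 739 bases. Those of FLAG loxp lay at 124, 186, 352, 407, 519, 616, 717 and 831 bases. The maximum near 519 bases fell within 1 base in the 3 libraries, and that near 400 within 8 bases. Heights differed: the maximum near 735 bases was a peak of 77 in PTBP2 wild type, the same as at 400 bases, while in FLAG loxp coverage was 39 at 717 bases and 72 at 352. The 2 bases at which most intervals of the gene began were chr10:69072586 and chr10:69072523. The first was the start of 5 intervals in FLAG loxp, with 6 and 5 in the PTBP2 libraries of wild-type and Rosa-PTBP1 cortex, and of none in the background replicates.

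**Figure D3:**
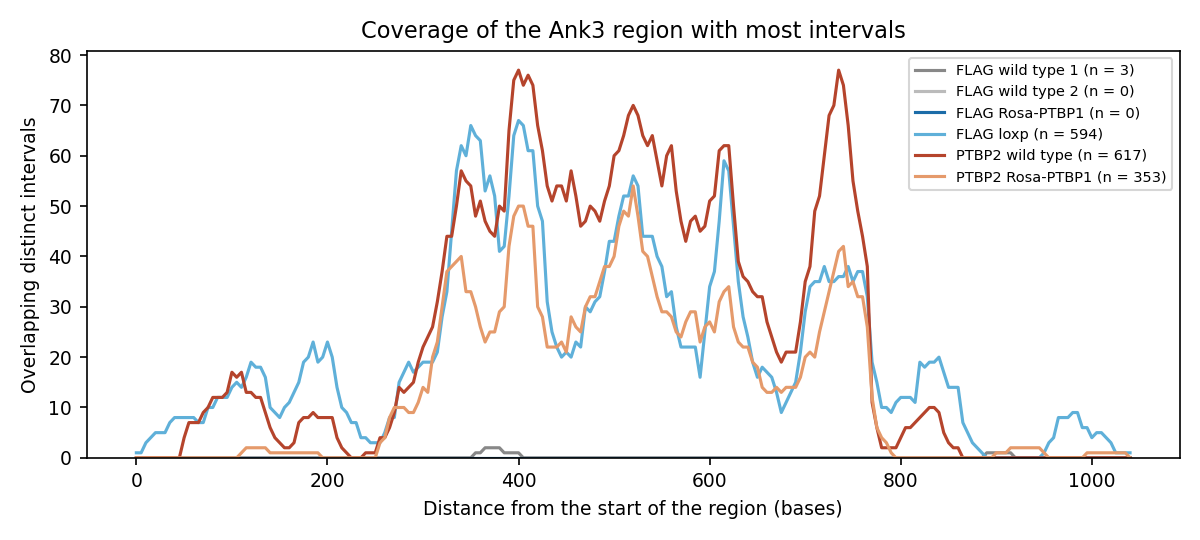
Number of overlapping distinct intervals along the Ank3 region with most intervals, by distance from its start in bases, 1 line per library. The lines of FLAG loxp, PTBP2 wild type and PTBP2 Rosa-PTBP1 rise and fall at nearly the same bases, with a shared maximum near 519 bases. Background replicate 1 reaches 2, and background replicate 2 and FLAG Rosa-PTBP1 have no interval there. The FLAG Rosa-PTBP1 list was nearly empty on this chromosome.

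A second cluster of Ank3 lay 326.0 to 330.4 kb from the 5′ edge, where 6 of the regions named for their size or ratio fell within 5140 bases, chr10:69185501-69190640. Together they held 643 intervals in FLAG loxp, 258 in PTBP2 wild type, 164 in PTBP2 Rosa-PTBP1, 4 in background replicate 1 and 0 in replicate 2. The largest, chr10:69185501-69186408, held 244, 139 and 102 intervals in the 3 PTBP libraries and 0 in both replicates. The ratio of its shares in FLAG loxp and PTBP2 wild type was 1.03, with an interval that included 1 (0.830 to 1.27). Its neighbour chr10:69187151-69187525 held 116 in FLAG loxp, with 31 and 14 in the PTBP2 libraries of wild-type and Rosa-PTBP1 cortex, a share 2.19-fold higher in FLAG loxp than in PTBP2 wild type (1.46 to 3.36). At the far end of the cluster, chr10:69190090-69190640 held 182, 70 and 45 and was 1.52-fold higher (1.15 to 2.03), and chr10:69189024-69189126 held 16, 18 and 3.

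Between those regions stood places that FLAG loxp listed and the PTBP2 libraries did not. Region chr10:69186512-69186756, 103 bases beyond the largest, held 47 intervals in FLAG loxp and 0 in both PTBP2 libraries, with 2 in background replicate 1. Region chr10:69187572-69187742, 46 bases beyond its neighbour, held 38 in FLAG loxp and 0 in both PTBP2 libraries and both background replicates. A further region nearer the 5′ edge, chr10:69132353-69132545, held 31 in FLAG loxp, with 0 and 4 in the PTBP2 libraries of wild-type and Rosa-PTBP1 cortex. In all, 4 regions of Ank3 with 30 or more intervals were listed at 0 in PTBP2 wild type, and the 3 named here, tied in ratio, were those farthest from the 5′ edge. The share of all 2113 such regions listed at 0 in PTBP2 wild type is not given here. Whether 4 is more than usual therefore cannot be said. No fold is given for them, since a region listed at 0 may have held reads below the false discovery rate.

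Other regions went the opposite way. The leading Ank3 region had a share 1.78-fold lower in FLAG loxp than in PTBP2 wild type (1.59 to 1.99). Region chr10:69082898-69083359, with 136 intervals in FLAG loxp, 120 in PTBP2 wild type, 101 in PTBP2 Rosa-PTBP1 and 3 in background replicate 1, was 1.51-fold lower (1.17 to 1.94). The lowest ratio was that of chr10:69087623-69087726, with 7, 24 and 4 intervals, a share 5.87-fold lower in FLAG loxp (2.45 to 16.1). Region chr10:69133049-69133133 had 23, 30 and 5 and was 2.23-fold lower (1.25 to 4.02), although it stood only 503 bases from the region with 31 intervals against 0. Region chr10:69147069-69147531 held 93, 60 and 17, a ratio of 0.906 (0.648 to 1.28). Of 33 Ank3 regions with 30 or more intervals in FLAG loxp and PTBP2 wild type together, 7 were at least 2-fold higher in FLAG loxp and 2 at least 2-fold lower. Over all such regions of the filled chromosomes 23.2% were higher and 17.4% lower. The median ratio was 1.03 in Ank3 and 0.974 over all 2113 regions.

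Ank2 had no region of comparable weight. Its largest site held 51 distinct intervals in FLAG Rosa-PTBP1 (rank 557 of 43026 sites) and 49 in FLAG loxp, with 32 and 33 in the PTBP2 libraries of wild-type and Rosa-PTBP1 cortex. The 6 regions with most intervals held 11.6%, 16.7%, 24.0% and 35.7% of the Ank2 intervals in these libraries, while the 6 leading regions of Ank3 held 38.7% in FLAG loxp, with 54.6% and 69.2% in the PTBP2 libraries of wild-type and Rosa-PTBP1 cortex. In both genes the share of the leading regions was largest in PTBP2 Rosa-PTBP1, the PTBP library with fewest intervals and fewest sites.

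The main cluster of Ank2 comprised 5 named regions within 4272 bases, chr3:126964282-126968553 on the minus strand. Together they held 170 distinct intervals in FLAG Rosa-PTBP1, 179 in FLAG loxp, 84 in PTBP2 wild type, 53 in PTBP2 Rosa-PTBP1 and, of the background replicates, 2 and 0. Region chr3:126964282-126964523 held 51, 49, 17 and 8 in the PTBP libraries, a share 1.68-fold higher in FLAG loxp than in PTBP2 wild type with an interval that included 1 (0.953 to 3.12). Region chr3:126964870-126964993 held nearly level counts, 28, 28, 24 and 23, in libraries of unequal size. These were 1.42%, 2.24%, 3.92% and 8.30% of the Ank2 intervals of each library. Region chr3:126965030-126965224 held 38, 40, 27 and 17, and both bases at which most Ank2 intervals began lay in these 2 regions, chr3:126965162 and chr3:126964952. Region chr3:126967867-126968066 held 22, 38, 10 and 1 with 2 in background replicate 1, and was 2.22-fold higher in FLAG loxp than in PTBP2 wild type (1.09 to 5.0). Region chr3:126968398-126968553 held 31, 24, 6 and 4.

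At the 5′-proximal peak of Ank2 a pair of regions 21 bases apart differed most in PTBP2 Rosa-PTBP1, at 1.44% and 11.9% of its Ank2 intervals. Region chr3:127106662-127106931 held 44 distinct intervals in FLAG Rosa-PTBP1 and 35 in FLAG loxp, with 26 and 4 in the PTBP2 libraries of wild-type and Rosa-PTBP1 cortex. Region chr3:127106953-127107096 held 27, 18, 32 and 33 in the same order, and both were at 0 in the background replicates. The second had a share 3.04-fold lower in FLAG loxp than in PTBP2 wild type (1.66 to 5.76), the lowest ratio among the 16 Ank2 regions with 30 or more intervals. The first had a ratio of 0.787 (0.460 to 1.36). Together they held 71, 53, 58 and 37 intervals, in libraries of unequal size, and such sums do not show the difference between the 2 regions.

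The other named Ank2 regions stood alone. Region chr3:127086669-127086994, 113.2 kb from the 5′ edge, held 41 distinct intervals in FLAG Rosa-PTBP1 and 38 in FLAG loxp, with 21 and 14 in the PTBP2 libraries of wild-type and Rosa-PTBP1 cortex. Region chr3:127008342-127008466 held 20, 26, 7 and 0, and region chr3:126753507-126753607, 446.4 kb from the edge, held 17, 22, 19 and 16. All 3 were at 0 in both background replicates. Of the 16 Ank2 regions with 30 or more intervals, 4 were at least 2-fold higher in FLAG loxp than in PTBP2 wild type and 1 was at least 2-fold lower, beside 23.2% and 17.4% of all such regions. The median ratio was 1.24 in Ank2, beside 0.974 over all regions.

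**Figure D4:**
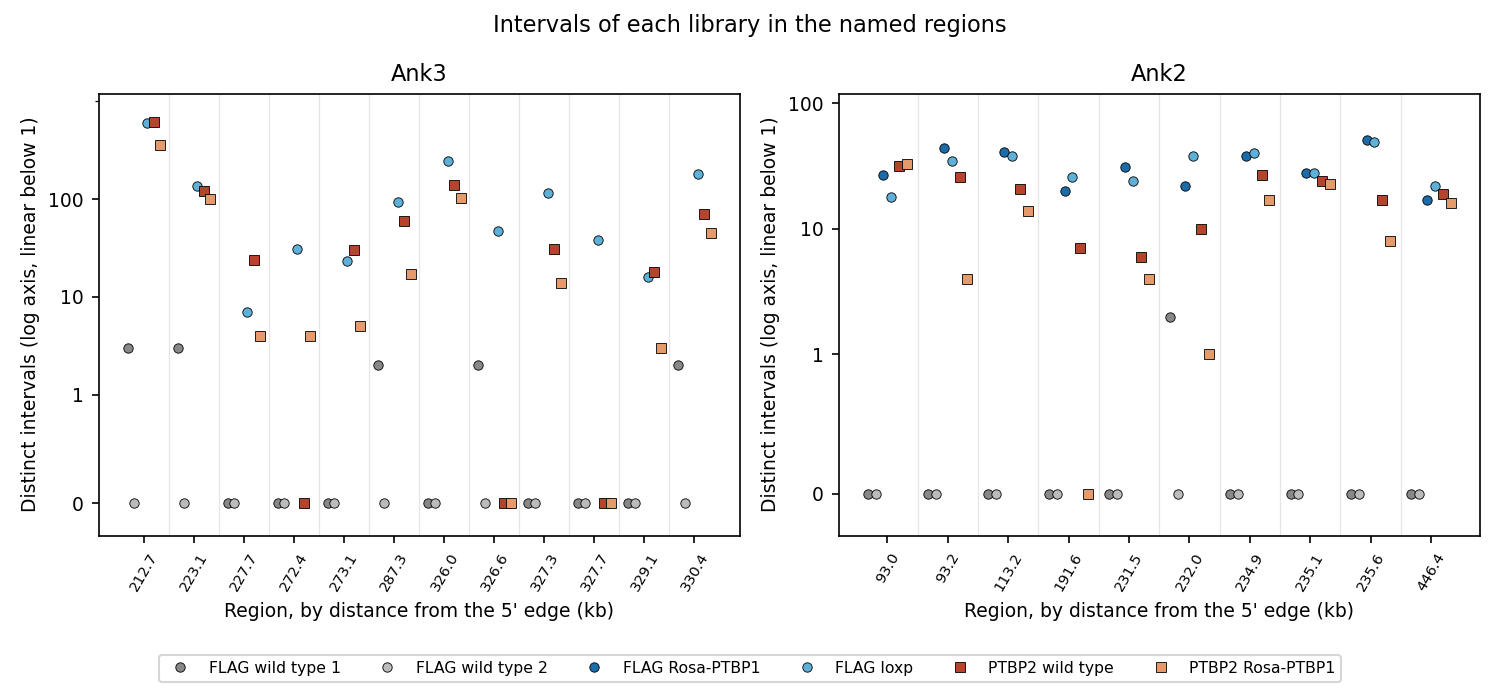
Distinct intervals of each library in the 12 named Ank3 regions (left) and the 10 named Ank2 regions (right), ordered by distance from the 5′ edge in kb, on a log axis that is linear below 1. FLAG Rosa-PTBP1 is left out for Ank3. The background replicates hold 0 to 3 intervals in every region shown, and 3 Ank3 regions have FLAG loxp points of 31, 47 and 38 with PTBP2 wild type at 0.

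Most places were listed in few libraries. Merged over all 6 libraries, Ank3 had 435 regions, of which 310 held an interval of a PTBP library other than FLAG Rosa-PTBP1 and 125 only background. In all 3 of these PTBP libraries 30 regions were listed, and 24 of those were in neither background replicate. Ank2 had 446 regions, 306 with an interval of any PTBP library, 16 in all 4 PTBP libraries and 15 of those in neither replicate. The replicates themselves met in 3 Ank3 regions and in no Ank2 region. The matching shares over all regions of the lists are not given here, so these counts describe the loci only.

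Of the 240 Ank3 sites of FLAG loxp, 81 overlapped a PTBP2 wild-type site by at least 1 base (33.8%, 27.8% to 40.1%), beside 26.4% over all FLAG loxp sites of the chromosomes filled in both. From the other side, 83 of 127 PTBP2 wild-type sites in Ank3 overlapped a FLAG loxp site (65.4%, 56.4% to 73.6%), beside 34.3% over all. In Ank2, 59 of 142 FLAG loxp sites overlapped PTBP2 wild type (41.5%, 33.3% to 50.1%), beside the same 26.4% over all, and 68 of 103 PTBP2 wild-type sites overlapped FLAG Rosa-PTBP1 (66.0%), beside 38.9% over all. These 4 shares were thus higher in the loci than over the whole lists. The loci were chosen for many intervals, and the part of site length in this was not tested. The share of Ank2 sites overlapping PTBP2 Rosa-PTBP1 was 9.13% for FLAG Rosa-PTBP1, 14.8% for FLAG loxp and 18.4% for PTBP2 wild type. Over all it was 14.5%, 16.9% and 20.8%, and the intervals of the last 2 loci shares included these values (9.39% to 21.7% and 11.5% to 27.3%). From the other side, PTBP2 Rosa-PTBP1 sites in Ank2 overlapped these libraries at 40.7%, 42.6% and 35.2%. Those shares were higher than over all, at 20.6%, 18.4% and 17.9%. In Ank3 the share overlapping PTBP2 Rosa-PTBP1 was 19.2% for FLAG loxp (14.4% to 24.7%) and 31.5% for PTBP2 wild type (23.5% to 40.3%), beside 16.9% and 20.8%. FLAG loxp and PTBP2 wild type shared 96 intervals with identical ends in Ank3, 2.72% of the first and 5.05% of the second, so most overlapping sites were built from different reads.

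Some PTBP sites were also listed in the background. In Ank3, 22 of 240 FLAG loxp sites overlapped background replicate 1 (9.17%, beside 6.21% over all) and 6 overlapped replicate 2 (2.5%, beside 1.85%). From the other side, 22 of 131 Ank3 sites of replicate 1 overlapped FLAG loxp (16.8%, beside 2.99% over all), as did 6 of 25 of replicate 2 (24%, beside 6.99%). Of PTBP2 wild-type sites in Ank3, 15 of 127 overlapped replicate 1 (11.8%, beside 6.05%). In Ank2, 13 of 230 FLAG Rosa-PTBP1 sites overlapped replicate 1 (5.65%, beside 6.37% over all) and 3 overlapped replicate 2 (1.30%, beside 1.97%). Among FLAG-PTBP1 libraries, 105 of 142 Ank2 sites of FLAG loxp overlapped a FLAG Rosa-PTBP1 site (73.9%, 65.9% to 80.9%), beside 47.4% over all.

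The comparisons between libraries below use the share of sites, each as sites of the locus per 1000 sites. With 1 library in each group but wild-type FLAG there is no test, and the interval of each ratio is an exact conditional binomial 95% interval that leaves out the spread between animals. Several comparisons share a library and are not independent of each other. Each is read against strand-specific 100-kb windows of the genome with at least 20 sites summed over the pair, called when the shares differed by 2-fold or more.

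Both genes had a larger share of sites in the PTBP libraries compared here than in the wild-type FLAG libraries. The loci were chosen for many intervals in these same libraries, so this excess is a description and not a test. PTBP2 Rosa-PTBP1 was not among the libraries compared with the background. On its filled chromosomes it had 54 Ank2 sites of 20927, a smaller share than in background replicate 1 (160 of 46129). In replicate 2 the share was lower, at 9 of 5870. For Ank3 the counts on the same chromosomes were 92, 131 and 25. No background library was made with the PTBP2 antibody, so PTBP2 wild type is set beside a different antibody. Ank3 in FLAG loxp had 3.86-fold the share of background replicate 1 (3.10 to 4.81) and 2.63-fold that of replicate 2 (1.74 to 4.14), the latter from the same sequencing run. Ank3 in PTBP2 wild type had 2.59-fold the share of replicate 1 (2.02 to 3.34), which shares its runs, and 1.77-fold that of replicate 2 (1.15 to 2.84). Counted in intervals, Ank3 stood further out, at 5.47-fold the mean of the replicates in FLAG loxp and 5.04-fold in PTBP2 wild type. As a share of all stacked sites the ratio to that mean was 1.72 and 1.49. It rests on few stacked Ank3 sites in the background, 1 of 397 in replicate 1 and 7 of 855 in replicate 2. FLAG loxp had 162 of 17567 and PTBP2 wild type 77 of 9643, the latter not a higher share than in replicate 2.

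Of the 100-kb windows of Ank3, 2 of 4 were called higher in FLAG loxp than in replicate 1, where 35.8% of all windows were, and 2 of 2 than in replicate 2, where 86.1% of all windows were. In PTBP2 wild type 2 of 4 were higher than in replicate 1 (26.7% of all windows) and 2 of 2 than in replicate 2 (80.6%). The called windows were those at 69.0 to 69.1 Mb and 69.1 to 69.2 Mb, with 97 and 123 sites in FLAG loxp, 47 and 64 in PTBP2 wild type, 40 and 45 in replicate 1 and 6 and 4 in replicate 2. The window from 69.3 to 69.4 Mb had 5 sites in FLAG loxp and 20 in replicate 1 and was not called. With so few sites in replicate 2, a window reached 20 sites only through the PTBP library. The calls against replicate 2 were thus nearly fixed in advance and locate nothing. Against replicate 1 the excess sat in the part of Ank3 described above.

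Ank2 in FLAG Rosa-PTBP1 had 2.34-fold the share of replicate 1 (1.90 to 2.88) and 5.41-fold that of replicate 2 (2.80 to 12.0). In FLAG loxp the ratios were 1.87 (1.48 to 2.36) and 4.32 (2.21 to 9.64), and in PTBP2 wild type 1.72 (1.33 to 2.22) and 3.98 (2.02 to 8.96). The size of the excess thus depended on the replicate, since replicate 2 held 9 Ank2 sites. Of 6 Ank2 windows 3 were called higher than replicate 1 in FLAG Rosa-PTBP1, where 35.1% of all windows were. The count was also 3 in FLAG loxp (35.8% of all windows) and 3 in PTBP2 wild type (26.7%). Against replicate 2 all 5 tested were higher in FLAG Rosa-PTBP1 (84.8% of all windows). So were 2 of 2 in FLAG loxp (86.1%) and 2 of 2 in PTBP2 wild type (80.6%). Replicate 2 had 0 to 4 sites in these windows, so these calls too were nearly fixed in advance. The window at the far end of Ank2, 126.6 to 126.7 Mb, went the other way, with 4 sites in FLAG loxp and 26 in replicate 1, a share 3.09-fold lower. It was also called lower in PTBP2 wild type, with 2 sites. Windows called lower than replicate 1 made up 15.8% of all windows in FLAG loxp and 19.6% in PTBP2 wild type.

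Transgenic FLAG-PTBP1 in cortex with loxp PTBP2 alleles was next set beside endogenous PTBP2 of wild-type cortex. Ank3 had 6.88 sites per 1000 in FLAG loxp and 4.63 in PTBP2 wild type, 1.49-fold higher (1.19 to 1.86). In distinct intervals the ratio was 1.08. Of these Ank3 sites 162 of 240 were stacked in FLAG loxp and 77 of 127 in PTBP2 wild type, and as a share of all stacked sites of the library the ratio was 1.15. Ank2 had 4.07 and 3.75 sites per 1000, 1.08-fold (0.836 to 1.41), which was not a difference beyond counting error. None of 2 Ank3 windows and none of 5 Ank2 windows were called at 2-fold, where 24% of all windows were called in either direction. Both Ank3 windows had an interval that excluded 1, as 25.6% of all windows did.

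The loxp alleles were examined in Ank2, by setting FLAG loxp beside FLAG Rosa-PTBP1. The share was 4.34 sites per 1000 (142 sites) against 5.36 (230 sites), 1.23-fold lower in FLAG loxp with an interval that reached 1 (0.997 to 1.53). All 5 tested windows had fewer sites per 1000 in FLAG loxp and none was called, where 14.5% of all windows were. The largest, 126.9 to 127 Mb, held 72 sites in FLAG loxp and 111 in FLAG Rosa-PTBP1, a ratio of 0.851 (0.624 to 1.16).

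The transgene was examined for the PTBP2 antibody. Ank3 had 4.40 sites per 1000 in PTBP2 Rosa-PTBP1 (92 sites) and 7.25 in PTBP2 wild type (127 sites), 1.65-fold lower (1.25 to 2.18). Ank2 had 2.58 (54 sites) and 5.88 (103 sites), 2.28-fold lower (1.62 to 3.23). In 1 of 2 Ank3 windows and 2 of 3 Ank2 windows the share was at least 2-fold lower, beside 40.4% of all windows. At 4-fold none of the 5 was called, beside 6.5% of all windows in either direction. Lower windows were thus common across the genome in this pair. The lowest was Ank2 from 126.9 to 127 Mb, with 17 sites against 47 (3.30-fold lower, 1.86 to 6.14), the window with the main cluster.

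Within single sequencing runs the Ank2 ratio stayed similar, at 2.03-fold lower in run XA041 (1.40 to 2.96) and 2.03-fold lower in run XB028 (1.35 to 3.12). That of Ank3 was 1.97-fold lower in XA041 (1.47 to 2.65) and 1.22-fold lower in XB028 with an interval that included 1 (0.90 to 1.67). PTBP2 Rosa-PTBP1 was the sparser library, and 46.2% of all its sites were single intervals against 23.9% in PTBP2 wild type. As a share of all distinct intervals, with every chromosome counted, Ank3 was at 1.23% and 1.22% in the 2 libraries. With every chromosome counted, the ratio of shares of sites was 0.879 in Ank3 and 0.636 in Ank2. The part of the lists' depth and of the sparse chromosomes in the lower share of sites was not tested.

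FLAG-PTBP1 and PTBP2 of the same genotype could be compared in Ank2. FLAG Rosa-PTBP1 had 8.68 sites per 1000 and PTBP2 Rosa-PTBP1 2.82, 3.07-fold higher for FLAG-PTBP1 (2.28 to 4.21). Counted in intervals the ratio was 1.97, by stacked sites 1.52 and over all chromosomes 2.24. In 4 of 5 windows the share was at least 2-fold higher, beside 57.1% of all windows, so that more windows than not were higher genome-wide in this pair. At 4-fold 1 was called, beside 19.9% of all windows in either direction. The window from 126.9 to 127 Mb held 111 sites against 17 (4.71-fold, 2.81 to 8.37).

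**Figure D5:**
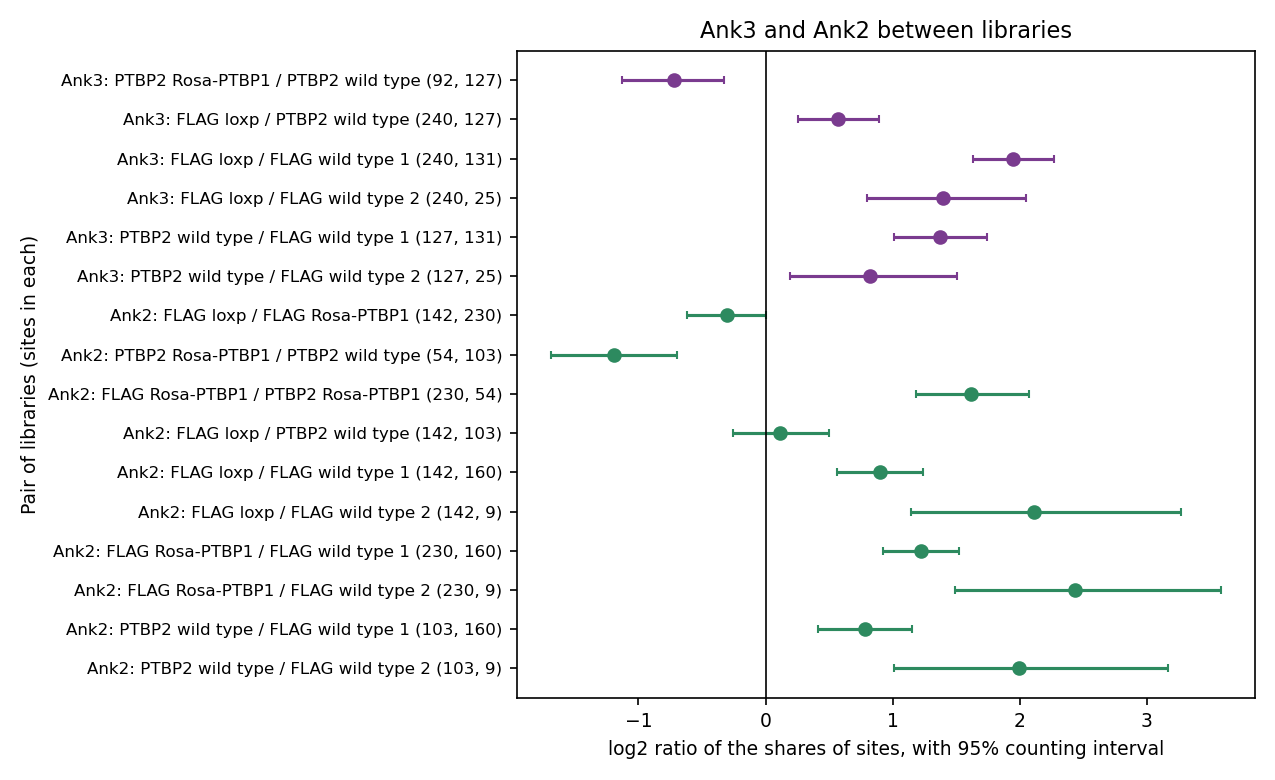
Log2 ratio of the share of sites in Ank3 (purple) and Ank2 (green) for each pair of libraries, with the number of sites in each in brackets. Bars are 95% intervals for counting error, and the vertical line marks equal shares. Against each background replicate FLAG loxp, PTBP2 wild type and, in Ank2, FLAG Rosa-PTBP1 lie to the right of the line. PTBP2 Rosa-PTBP1 was not set beside the background. The interval of Ank2 in FLAG loxp against FLAG Rosa-PTBP1 reaches the line, and the interval of Ank2 in FLAG loxp against PTBP2 wild type includes it.

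The 100-kb windows most like each gene in the order and size of their shares over the libraries were found by the distance between log2 shares. For Ank3, over 5 libraries and 1299 windows with a median distance of 4.61, the nearest were chromosome 11 plus strand from 24 to 24.1 Mb (0.62), chromosome 12 plus strand from 104.2 to 104.3 Mb (0.62) and chromosome 2 minus strand from 6.9 to 7 Mb (0.64). For Ank2, over 6 libraries and 1499 windows with a median distance of 5.15, they were chromosome 1 minus strand from 25.2 to 25.3 Mb (0.60), chromosome 16 plus strand from 41.2 to 41.3 Mb (0.68) and chromosome 2 plus strand from 4 to 4.1 Mb (0.72). Several other windows thus had nearly the profile over libraries of each ankyrin gene. They are given by position only.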

How the data were processed

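Bowtie alignment to mm9 is named in the submitters' processing notes. Not given in the sources used here are the version of Bowtie, the cluster caller, its background and its false discovery rate. The deposited lists hold start and end positions of the reads of significant clusters, per the file headers, with no count, score or gene name. An interval could be listed on several lines, and lines were collapsed to distinct intervals. Same-strand intervals with overlap or contact were joined into sites. A chromosome was taken as filled in a library when its share of sites was at least 0.5 of the median share of the other libraries. Ratios carry exact conditional binomial 95% intervals and shares exact Clopper-Pearson intervals. Groups came from the sample labels.

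Named regions were, per gene, the 6 with most intervals in the PTBP libraries and the 3 highest and 3 lowest ratios of FLAG loxp to PTBP2 wild type among regions with 30 or more intervals in both, plus the 2 bases at which most intervals began. Nearest windows used a pseudocount of 0.5 sites. The members, lists and rules were chosen with earlier results of these data known. Partner genes of the ankyrins and sequences of the sites were not analysed here, because no mm9 genome or gene model was used. Python 3.11.15, pandas 2.3.3, numpy 2.4.6, SciPy 1.17.1 and matplotlib 3.10.9 were used.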

Additional observations from a re-analysis of the deposited data

How the results depend on the processing

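Of 62 alternative values of the ratios, 45 stayed within the error of the value reported, 17 moved and none reversed one whose interval excluded 1. Some of the 45 could not move. The 5 values without background replicate 1 and the 5 without replicate 2 were judged by the spread between those same replicates. Counting all chromosomes gave the identical value wherever every chromosome was already filled. The strand shares could not move, since no antisense interval was listed. Merging sites within 50 bases moved none of 11 ratios. On the log2 scale, the Ank3 ratio of PTBP2 Rosa-PTBP1 to PTBP2 wild type (-0.72) was -0.19 over all chromosomes and -0.29 in run XB028 alone. That of FLAG loxp to PTBP2 wild type (0.57) was 0.12 by intervals and 0.21 by stacked sites. Against the mean of the background replicates, Ank3 in FLAG loxp (1.64) was 2.45 by intervals, 0.78 by stacked sites and 2.20 by intervals without its leading region, an alternative chosen after seeing the data; Ank3 in PTBP2 wild type (1.07) was 2.33, 0.58 and 1.78. The stacked values of Ank3 against the background rest on 1 and 7 stacked sites in the replicates. The Ank2 ratio of FLAG loxp to FLAG Rosa-PTBP1 (-0.30) was 0.046 by stacked sites. That of PTBP2 Rosa-PTBP1 to PTBP2 wild type (-1.19) was -0.53 by intervals, -0.46 by stacked sites and -0.65 over all chromosomes. That of FLAG Rosa-PTBP1 to PTBP2 Rosa-PTBP1 (1.62) was 0.98, 0.60 and 1.16. The cause of these shifts was not tested.

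With either background replicate left out, Ank3 ranged from 1.39 to 1.95 in FLAG loxp and from 0.82 to 1.38 in PTBP2 wild type. Ank2 ranged from 0.90 to 2.11 in FLAG loxp, 1.22 to 2.44 in FLAG Rosa-PTBP1 and 0.78 to 1.99 in PTBP2 wild type. Sites of FLAG loxp within 50 bases of a PTBP2 wild-type site were 41.7% in Ank3 and 51.4% in Ank2. At 4-fold, 0 windows were called for the PTBP2 antibody with the transgene (6.5% of all) and 1 between FLAG-PTBP1 and PTBP2 (19.9%). By intervals that exclude 1, 2 Ank3 windows differed between FLAG loxp and PTBP2 wild type (25.6%). No paired analysis was possible because every group but wild-type FLAG has 1 library. Lists of significant clusters give no reads below their threshold, so low levels cannot be measured.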
